A study of Mus musculus with 30 samples.

Results

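The genes described here were 7 markers of the deep layers of the cerebral cortex, measured in RNA-seq of the mouse dorsal CA1 (dCA1), the dorsal part of hippocampal field CA1. They were Ctgf, Cplx3 and Nxph4, which mark layer 6b, Tle4 and Foxp2, which mark layer 6, and Tbr1 and Fezf2, transcription factors of deep-layer projection neurons. They were taken by symbol from a table of 24883 rows of FPKM (fragments mapped, scaled to transcript length and to library size), each symbol matching 1 row. The set was selected on a measured value, the lower Ctgf level after 10 min of training, so the values of the 7 genes in VEH-T10 mice against VEH-HC mice (conditions defined in the next paragraph) are given as a description, without a test. The same holds for Ctgf wherever the home-cage or the 10 min vehicle mice enter a comparison, since its levels in those mice chose the set.

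The study asked how point mutations of a tyrosine of the transcriptional regulator CREST (encoded by Ss18l1) bear on gene expression after object location memory (OLM) training. All 30 mice were wild-type C57BL/6J males, 2 to 4 months old by the methods, 6 in each of 5 conditions, with 1 library from a hemisphere of the dorsal hippocampus of each mouse. VEH-HC mice received the in vivo-jetPEI transfection reagent without DNA and stayed in the home cage with handling only. VEH-T10 mice received the same vehicle and 10 min of training, which suffices for long-term memory, and VEH-T3 mice the vehicle and 3 min, which does not. Y397F-T10 mice received the reagent with a plasmid for the Y397F point mutant of CREST before 10 min of training, and Y397D-T3 mice a plasmid for the Y397D point mutant before 3 min. Each plasmid carried HA-tagged mouse CREST under the miniCaMK2 promoter, a promoter of excitatory neurons, and reached only transfected cells. The labels place the infusion 3 days before training, while the surgery methods of the paper give a different interval. Trained mice were killed 1 h after training. No plasmid went to home-cage mice, so a mutant can be compared with its own training time only in Y397F-T10 against VEH-T10 and in Y397D-T3 against VEH-T3. The vehicle held no DNA, and the paper states that wild-type CREST was not overexpressed. In these comparisons plasmid delivery, added CREST and the mutation therefore cannot be told apart.

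Layer 6b is the deepest sheet of the cortex, a thin layer on the white matter that keeps neurons of the embryonic subplate. In a block cut from the dorsal hippocampus, white matter and cortex lie just above CA1 and the subiculum lies behind it. Ctgf encodes a secreted matricellular protein and is also a classic target of YAP and TEAD in many cell types. Cplx3 encodes a complexin, a protein that binds the SNARE complex in transmitter release, and Nxph4 encodes a neurexophilin, a secreted ligand of neurexins. Tle4 encodes a Groucho-type corepressor, Foxp2 a forkhead factor, Tbr1 a T-box factor found in glutamatergic neurons of cortex and hippocampus, and Fezf2 a zinc-finger factor that specifies subcortical projection neurons.

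In GRCm38, the build also called mm10, Ctgf (annotated as Ccn2) lies at chr10:24595442-24598683 on the plus strand, Cplx3 at chr9:57599992-57606281 on the minus strand and Nxph4 at chr10:127525473-127534559 on the minus strand. Tle4 lies at chr19:14448150-14598051 (minus), Foxp2 at chr6:14901349-15441977 (plus), Tbr1 at chr2:61802930-61814114 (plus) and Fezf2 at chr14:12342094-12348189 (minus). Each value covers the whole gene. In GENCODE, Gm15270 overlaps Ctgf and Gm25470 overlaps Foxp2, and no gene overlaps the other 5.

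The promoter of Cplx3 is shown because, of the members, Cplx3 followed Ctgf most closely across mice. RefSeq promoters (GRCm38.p6) matched 4 of the 7 genes, namely Cplx3, Tle4, Tbr1 and Fezf2. The 250 bases before the annotated start of Cplx3, chr9:57606282-57606531 on the minus strand, follow, with the E-box CACGTG in capitals.

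Cplx3 promoter: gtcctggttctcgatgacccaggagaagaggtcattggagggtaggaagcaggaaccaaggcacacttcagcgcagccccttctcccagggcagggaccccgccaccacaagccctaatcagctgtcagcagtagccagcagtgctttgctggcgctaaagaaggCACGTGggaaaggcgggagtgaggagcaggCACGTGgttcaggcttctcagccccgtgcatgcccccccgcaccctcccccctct

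This window held 2 copies of the E-box, beginning 85 and 55 bases before the start, and 6.05% of 27025 mouse promoters of the same length held at least 1. The 5 letters TGACG of the cAMP response element (17.9% of promoters), the T-box core GGTGTG (16.2%) and the TEAD element GGAATG (12.6%) had 0 matches on either strand. CACGTG reads the same on both strands, so each copy was counted once. A match is a description of letters, not a site of binding.

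All 8 CA1 pyramidal markers on the list had a mean of at least 1 FPKM, and Mpped1 had the highest, 56.1 FPKM. So did all 7 markers of dentate granule cells, all 4 of subiculum, all 6 of GABAergic interneurons and 8 of 9 of CA2 and CA3, so these levels do not tell dCA1 from a larger block of hippocampus. Ss18l1, to which reads from the mouse CREST plasmids could also map, ranged in mean from 12.01 ± 1.18 FPKM in VEH-T10 to 13.5 ± 0.471 in Y397D-T3 (SD, n = 6). Relative depth, estimated from the spacing of low FPKM values, ran from 0.812 to 1.25 times the median library. The libraries that stood apart in the genes described here were VEH-T3 mouse 1, Y397D-T3 mouse 3 and Y397F-T10 mouse 1, and the differences they moved most are also given without them. These libraries were picked for their values in these same genes. The p-values of differences without them are therefore descriptions, not tests.

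Per length, Tle4, Fezf2 and Tbr1 were the abundant members, with mean levels over the 30 libraries of 13.0, 13.9 and 11.4 FPKM. Ctgf stood at 2.93 and Cplx3 at 1.24 FPKM. Nxph4 (0.834 FPKM) and Foxp2 (0.184 FPKM) fell under the mean of 1 FPKM required for testing, so 5 of the 7 passed it, and values for the other 2 come from a fit without that filter. The share of each gene's variance, on the log2(FPKM + 1) scale, that lay between the 5 conditions was 40.9% for Ctgf, 38.4% for Cplx3, 29.6% for Nxph4, 26.7% for Tbr1, 25.8% for Foxp2, 16.1% for Fezf2 and 1.31% for Tle4.

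**Figure D1:**
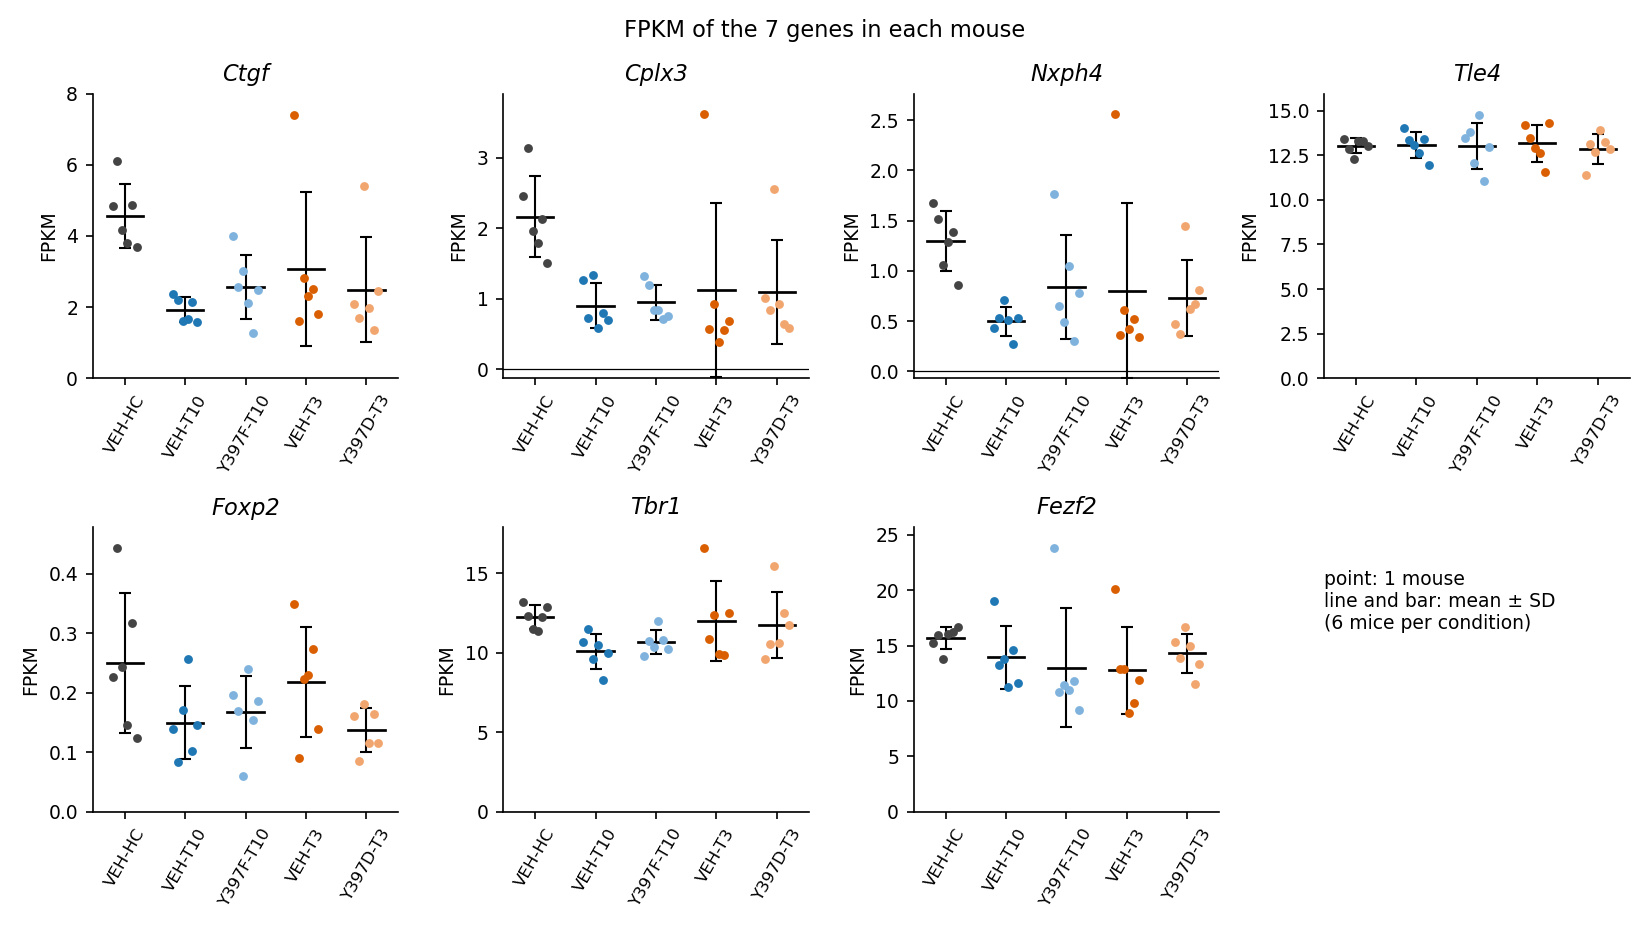
FPKM of each of the 7 genes (vertical axes) in the 5 conditions (horizontal axes). Points are single mice, lines and bars the mean ± SD of 6 mice. VEH-T3 mouse 1 is the highest of the 30 in Ctgf (7.41), Cplx3 (3.62), Nxph4 (2.56) and Tbr1 (16.6 FPKM), and Tle4 stays between 11.1 and 14.8 FPKM throughout.

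Ctgf was highest in the home cage. Its level ran from 3.67 to 6.09 FPKM in VEH-HC (median 4.50), and from 1.59 to 2.37 in VEH-T10 (median 1.90). All 6 VEH-T10 mice lay below all 6 VEH-HC mice, the pattern on which the set was chosen. In Y397F-T10 Ctgf ran from 1.28 to 3.99 FPKM (median 2.52), and 5 of 6 mice lay below the lowest VEH-HC mouse. In VEH-T3 the range was 1.61 to 7.41 FPKM (median 2.41), and in Y397D-T3 it was 1.35 to 5.40 (median 2.02), again with 5 of 6 mice in each condition below the home-cage range. Over the 4 trained conditions 21 of 24 mice were below it, none of those 21 above 3.01 FPKM, and the other 3 were the libraries that stand apart. Of these, VEH-T3 mouse 1 had the highest Ctgf value of all 30 mice.

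By median the order of Ctgf levels was VEH-HC, Y397F-T10, VEH-T3, Y397D-T3, VEH-T10. The ranges of neighbours in this order overlapped at each step, at the first step only through Y397F-T10 mouse 1. Mean Ctgf was 4.57 ± 0.902 FPKM at home cage and 1.93 ± 0.345 after 10 min with vehicle (SD, n = 6), a log2(FPKM + 1) difference of -0.92. It was -0.67 for Y397F-T10, -0.56 for VEH-T3 and -0.74 for Y397D-T3. All 4 share the same 6 home-cage mice. Left out singly, VEH-T3 mouse 1 moved the VEH-T3 difference to -0.79 and Y397D-T3 mouse 3 moved the Y397D-T3 difference to -0.94.

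Cplx3 showed the same division between home cage and training. Its level ran from 1.502 to 3.14 FPKM in VEH-HC (median 2.05) and from 0.580 to 1.34 in VEH-T10 (median 0.756), with no overlap. In Y397F-T10 it ran from 0.709 to 1.33 FPKM (median 0.842), also without overlap with VEH-HC. The VEH-T3 range was 0.381 to 3.62 FPKM (median 0.621) and the Y397D-T3 range 0.587 to 2.56 (median 0.879). In each of these 2 conditions 1 mouse lay within or above the home-cage range and the other 5 below it: the second highest value was 0.927 FPKM in VEH-T3 and 1.01 in Y397D-T3.

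The log2 difference of Cplx3 from VEH-HC was -0.73 in VEH-T10, given without a test. In Y397F-T10 it was -0.69 (95% interval -1.13 to -0.25, limma adjusted p = 0.0994 over 13184 rows). In VEH-T3 it was -0.70 (-1.14 to -0.26, adjusted p = 0.054) and in Y397D-T3 -0.64 (-1.08 to -0.20, adjusted p = 0.0675). None of these passed the threshold of 0.05. Without VEH-T3 mouse 1 the VEH-T3 difference was -0.95 (adjusted p = 0.00173), and without Y397D-T3 mouse 3 the Y397D-T3 difference was -0.80 (adjusted p = 0.0191), so both fell on the other side of the threshold without 1 library. Leaving out VEH-HC mouse 6 also brought the VEH-T3 difference below the threshold (-0.76, adjusted p = 0.0475). With a pseudocount of 0.1 in place of 1 the VEH-T3 difference was -1.25 (adjusted p = 0.0396). Fitted on the 12 compared libraries alone, the Y397F-T10 and Y397D-T3 differences of Cplx3 had adjusted p = 0.0406 and 0.0354. Other alternatives stayed above the threshold. For Y397F-T10 the limma adjusted p was 0.166 with library medians subtracted. It ran from 0.0662 to 0.217 with single libraries left out. In VEH-T3 and Y397D-T3, 10 and 11 of 12 such fits called no member, Ctgf not counted.

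Nxph4, though low, ran the same way. Its level was 0.864 to 1.67 FPKM in VEH-HC (median 1.34) and 0.269 to 0.711 in VEH-T10 (median 0.524), with no overlap. The ranges were 0.299 to 1.77 FPKM in Y397F-T10 (median 0.715), 0.346 to 2.56 in VEH-T3 (median 0.472) and 0.376 to 1.44 in Y397D-T3 (median 0.642). All 3 overlapped VEH-HC, through Y397F-T10 mice 1 and 4, VEH-T3 mouse 1 and Y397D-T3 mouse 3. The log2 difference from the home cage was -0.61 for VEH-T10, -0.35 for Y397F-T10 (adjusted p = 0.398), -0.44 in VEH-T3 (adjusted p = 0.209) and -0.43 in Y397D-T3 (adjusted p = 0.192). Left out singly, VEH-T3 mouse 1 moved the VEH-T3 difference of Nxph4 to -0.65, past the threshold (limma adjusted p = 0.01). Y397D-T3 mouse 3 moved the Y397D-T3 difference to -0.53 (adjusted p = 0.111) and Y397F-T10 mouse 1 the Y397F-T10 difference to -0.48 (adjusted p = 0.172). Each was the highest of its condition in Nxph4, so these p-values are descriptions. The log2(FPKM + 1) scale understates the change of a gene this low: mean Nxph4 was 1.298 ± 0.297 FPKM in VEH-HC and 0.499 ± 0.145 in VEH-T10 (SD, n = 6).

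The layer 6 gene Tle4 kept nearly the same mean level in the 5 conditions. It ran from 12.3 to 13.4 FPKM in VEH-HC (median 13.2) and from 11.98 to 14.0 in VEH-T10 (median 13.2), and 9 of 24 trained mice lay above the home-cage range and 5 below it. Against home cage its log2 difference was 0.00 for VEH-T10, -0.01 for Y397F-T10 (95% interval -0.12 to 0.11), 0.01 in VEH-T3 (-0.10 to 0.13) and -0.02 in Y397D-T3 (-0.13 to 0.10), with adjusted p from 0.874 to 0.973 in the 3 tested comparisons. Foxp2 lay between 0.0598 and 0.443 FPKM in all 30 mice and its 5 conditions overlapped, with its highest median at home cage (0.235 FPKM) and its lowest in Y397D-T3 (0.138). The largest tested difference of Foxp2 was -0.13 in Y397D-T3 (-0.24 to -0.02, adjusted p = 0.147). At this level the log2(FPKM + 1) scale understates a change even more than for Nxph4. Mean Foxp2 was 0.250 ± 0.118 FPKM in VEH-HC, 0.137 ± 0.037 in Y397D-T3 and 0.218 ± 0.0927 in VEH-T3 (SD, n = 6). All 6 Y397D-T3 mice lay below the home-cage median.

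Tbr1 ran from 11.4 to 13.2 FPKM in VEH-HC (median 12.3) and from 8.30 to 11.5 in VEH-T10 (median 10.2), and 5 of 6 VEH-T10 mice lay below the home-cage range. In Y397F-T10 the range was 9.83 to 12.01 FPKM (median 10.6), again with 5 of 6 below. The 3 min conditions overlapped VEH-HC more widely, with 9.89 to 16.6 FPKM in VEH-T3 (median 11.6) and 9.63 to 15.4 in Y397D-T3 (median 11.2). Tbr1 differed from VEH-HC on the log2 scale by -0.26 after VEH-T10, by -0.18 in Y397F-T10 (adjusted p = 0.34), -0.04 in VEH-T3 (adjusted p = 0.852) and -0.07 in Y397D-T3 (adjusted p = 0.701). Without VEH-T3 mouse 1 the VEH-T3 difference of Tbr1 was -0.14 (adjusted p = 0.364), and without Y397D-T3 mouse 3 the Y397D-T3 difference was -0.14 (adjusted p = 0.36).

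Fezf2 was most even in the home cage. It ran from 13.8 to 16.7 FPKM in VEH-HC (median 16.0), 11.3 to 19.0 in VEH-T10 (median 13.5), 9.23 to 23.8 in Y397F-T10 (median 11.2), 8.95 to 20.1 in VEH-T3 (median 12.4) and 11.6 to 16.7 in Y397D-T3 (median 14.4). The coefficient of variation was 6.47% in VEH-HC, 12.5% in Y397D-T3, 20.2% in VEH-T10, 30.9% in VEH-T3 and 41.2% in Y397F-T10. In Y397F-T10 mouse 1 stood apart, and the next highest mouse was at 11.8 FPKM. Against home cage the log2 difference was -0.18 for VEH-T10, -0.32 for Y397F-T10 (adjusted p = 0.333), -0.32 in VEH-T3 (adjusted p = 0.267) and -0.13 in Y397D-T3 (adjusted p = 0.658). Without Y397F-T10 mouse 1 the Y397F-T10 difference was -0.49 (adjusted p = 0.0421), and without VEH-T3 mouse 1 the VEH-T3 difference was -0.45 (adjusted p = 0.064). Each was the highest of its condition in Fezf2, so these p-values are descriptions. For every member the ranges of neighbouring conditions overlapped when the conditions were ordered by median. In bulk tissue, fewer cells of a type and less RNA per cell cannot be told apart.

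**Figure D2:**
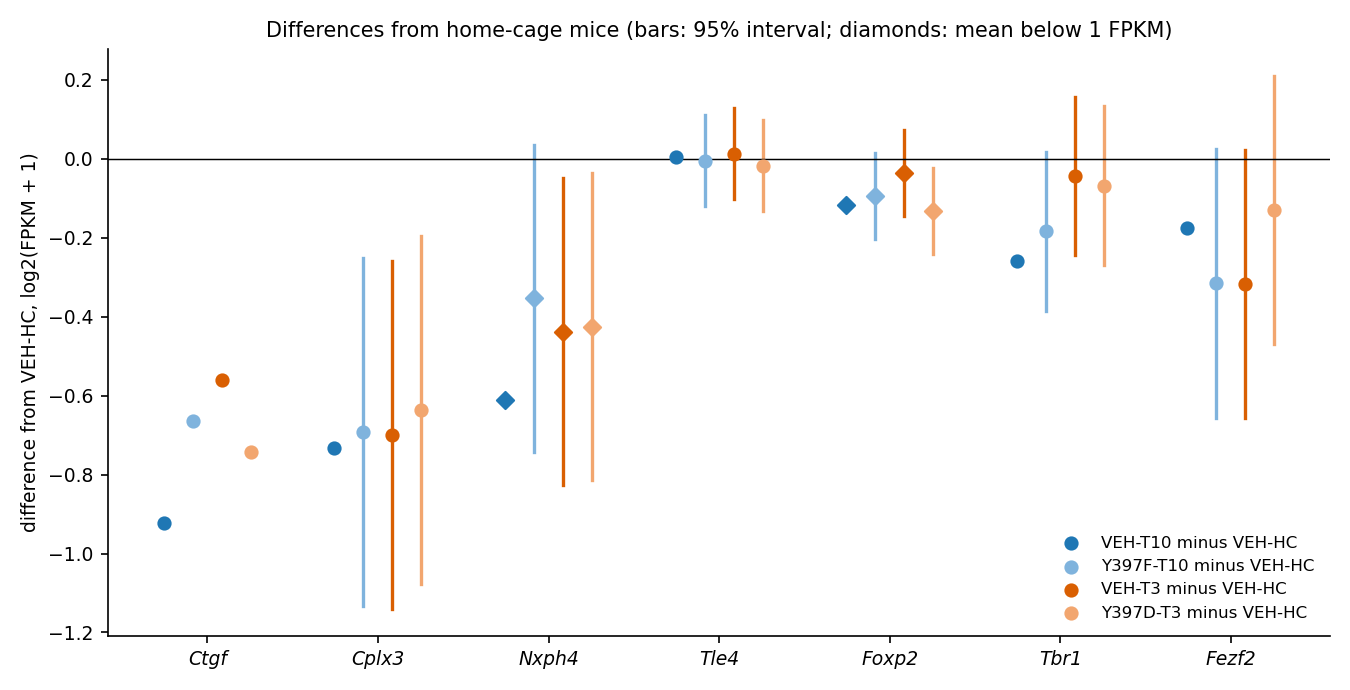
Difference of each trained condition from VEH-HC (vertical axis, log2(FPKM + 1)) for the 7 genes (horizontal axis), with 95% intervals from limma where a test was made. Points of Ctgf and of VEH-T10 carry no interval because they chose the set, and diamonds mark genes with a mean below 1 FPKM. Cplx3 lies between -0.73 and -0.64 in all 4 conditions and Tle4 between -0.02 and 0.01.

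Counts of members are given beside the share of all rows tested. In VEH-T10 against VEH-HC, 2 of the 5 members that passed the filter (Ctgf and Cplx3) had all 6 trained mice below all 6 home-cage mice, where 1.64% of all rows did and limma called 0.501% of all rows lower. This comparison chose the set, so nothing is read from that count. Of the 4 members other than Ctgf, 0 were called by limma in Y397F-T10, VEH-T3 or Y397D-T3 against VEH-HC, where 0.66%, 2.94% and 3.16% of all rows were called lower. At an unadjusted p under 0.05 the count was 1 of 4 in each of the 3, Cplx3 each time, where 11.4%, 13.8% and 14.6% of all rows were lower. All 6 trained mice were below all 6 home-cage mice for 1 of the 5 in Y397F-T10 (Cplx3), against 1.24% of all rows, and for 0 in VEH-T3 and Y397D-T3, against 1.31% and 3.02%.

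No member was called between a CREST mutant and the vehicle mice of the same training. Between Y397F-T10 and VEH-T10, 0 of 4 members were called by limma and 0 had an unadjusted p under 0.05, with 0.0% of all rows called and 3.78% of all rows at an unadjusted p under 0.05. The interval of the difference was -0.40 to 0.48 for Cplx3, -0.12 to 0.28 for Tbr1 and -0.48 to 0.20 for Fezf2. Ctgf was higher in Y397F-T10 by 0.26 on the log2 scale, and by 0.15 without Y397F-T10 mouse 1, both given without a test. Without the same mouse the Fezf2 difference moved from -0.14 to -0.32 (adjusted p = 0.901). Between Y397D-T3 and VEH-T3, where Ctgf could be tested, 0 of 5 members were called and 0 had an unadjusted p under 0.05, with 0.00758% of all rows called and 7.87% at an unadjusted p under 0.05. The log2 difference of Ctgf was -0.18 (95% interval -0.65 to 0.28, adjusted p = 0.861), and 0.05 without VEH-T3 mouse 1. That of Cplx3 was 0.06, and it was 0.32 without VEH-T3 mouse 1 (adjusted p = 0.399) and -0.10 without Y397D-T3 mouse 3 (adjusted p = 0.969). Intervals of this width do not show that mutant and vehicle mice had equal levels.

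The 2 training times were compared in vehicle mice. Between VEH-T10 and VEH-T3, 0 of 4 members were called by limma, against 0.0455% of all rows, and 1 had an unadjusted p under 0.05: Tbr1 was lower after 10 min (log2 difference -0.22, adjusted p = 0.598), where 8.15% of all rows had such a p in either direction. Without VEH-T3 mouse 1 the difference of Tbr1 was -0.12 (adjusted p = 0.61). Cplx3 differed by -0.03 (95% interval -0.47 to 0.41), and by 0.22 without that mouse. The Ctgf difference was -0.36, and -0.13 without VEH-T3 mouse 1, both given without a test.

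Across single mice the layer 6b genes went together. After each condition's mean was subtracted, Pearson's r of Ctgf with Cplx3 was 0.846 over 30 mice (permutation p = 8e-05, adjusted over 21 pairs p = 0.00084) and Spearman's rho was 0.692 (adjusted permutation p = 0.00378). Ctgf and Nxph4 had r = 0.817 and rho = 0.588 (adjusted permutation p = 0.00203 and 0.0117), and Cplx3 and Nxph4 had r = 0.796 and rho = 0.542 (adjusted permutation p = 0.00242 and 0.0207). Permutations were made within conditions and were two-sided. Without the 2 mice farthest from the median of the first gene named, VEH-T3 mouse 1 and Y397D-T3 mouse 3, r was 0.521 for Ctgf and Cplx3 (adjusted permutation p = 0.0303), 0.56 for Ctgf and Nxph4 (0.0945) and 0.422 for Cplx3 and Nxph4 (0.0998). The latter 2 passed the threshold only with those mice.

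The r of Ctgf with the other members was lower in value. With Fezf2 r was 0.603 and rho 0.398 (adjusted permutation p = 0.00847 and 0.115), and r without the 2 mice was 0.432. With Tbr1 r was 0.537 and rho 0.226 (adjusted permutation p = 0.0477 and 0.398), and r turned to -0.16 without the 2 mice, on which it rested. With Foxp2 r was 0.449 and rho 0.369 (adjusted permutation p = 0.0293 and 0.137), and with Tle4 r was 0.201 and rho 0.0892 (0.415 and 0.708). The layer 6 pair itself, Tle4 and Foxp2, had r = -0.02 and rho = -0.10 (adjusted permutation p = 0.919 and 0.708). In all, 12 of 21 pairs had an adjusted p under 0.05 for r, and 4 of 21 without the 2 farthest mice. No such count is given for pairs of other genes, so it is not read as a trait of the members. By this r with Ctgf, Cplx3 ranked 2 among the other tested rows. Fezf2 ranked 329, Tbr1 541 and Tle4 2789, so many rows outside the set followed Ctgf more closely than these 3.

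Per mouse, the FPKM of Ctgf stood in a narrow ratio to that of Cplx3 in the home cage, from 1.94 to 2.45. It ran from 1.20 to 3.04 in VEH-T10, 1.80 to 3.55 in Y397F-T10 and 2.05 to 6.05 in VEH-T3. In Y397D-T3, 5 of 6 mice, mouse 3 among them, lay between 2.02 and 2.13, inside the home-cage range, and mouse 6 stood at 4.16. In VEH-T3 mouse 1 the ratio was 2.05, the lowest of its condition. Among the 5 tested rows nearest to Ctgf over the 30 libraries on the log2(FPKM + 1) scale, Cplx3 came first (r = 0.88), then Cbln1 (0.874), Camk2d (0.867), Samd10 (0.86) and Tshz2 (0.859). With condition means subtracted the nearest 5 were Unc13c (0.85), Cplx3 (0.846), Samd10 (0.84), Cbln1 (0.823) and Satb1 (0.811). These r are descriptions over 30 libraries.

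**Figure D3:**
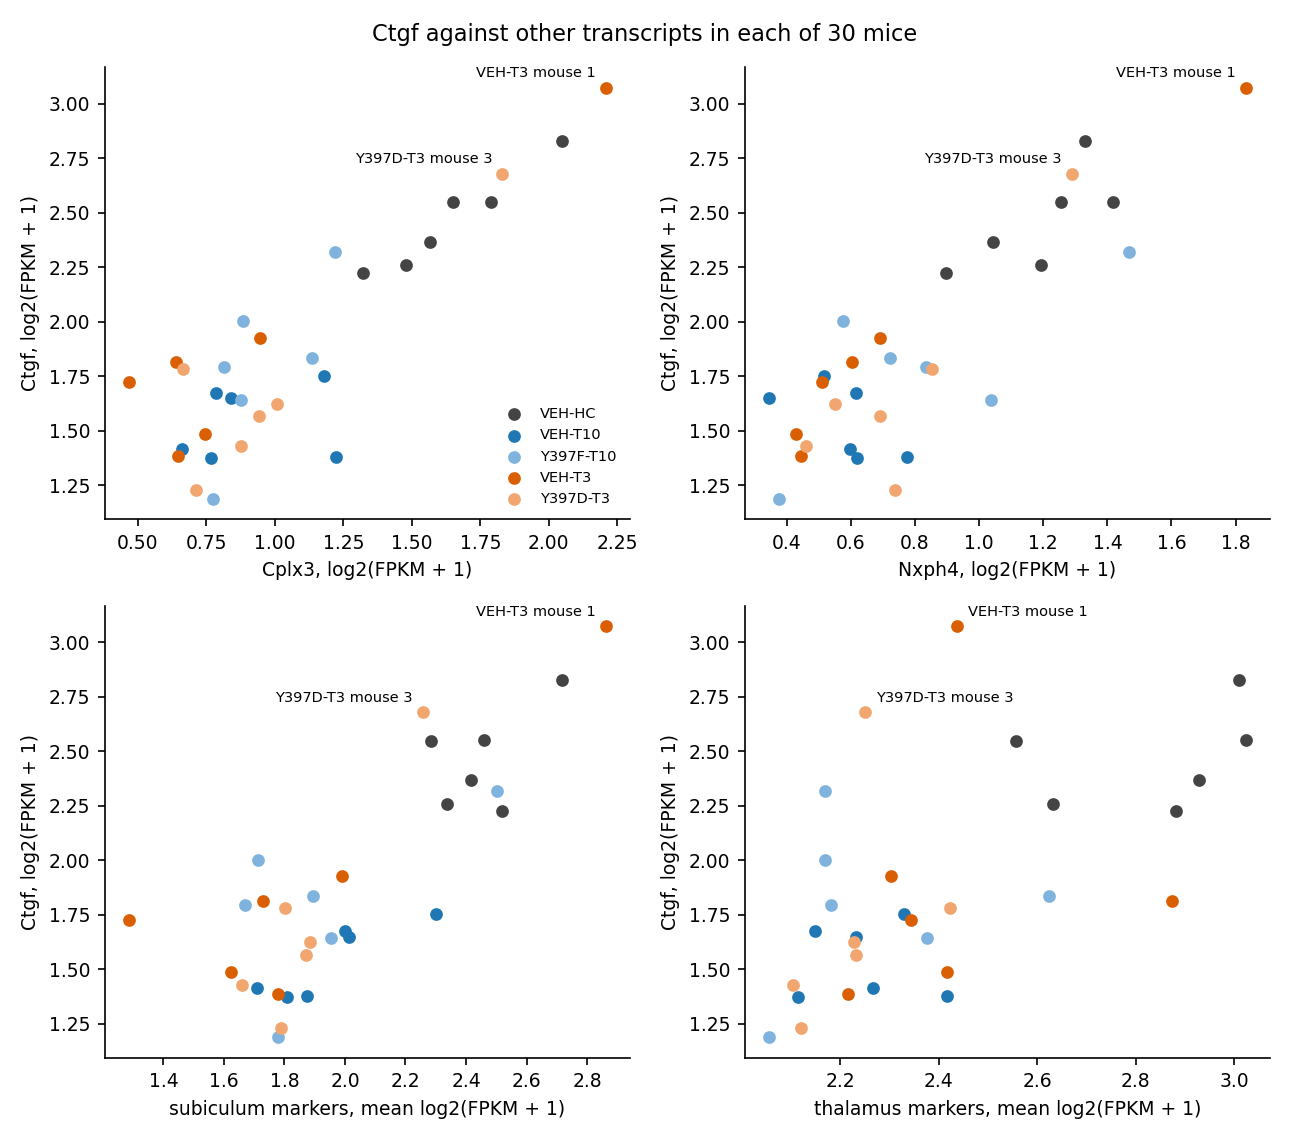
Ctgf (vertical axes, log2(FPKM + 1)) against Cplx3, Nxph4, and the mean of the subiculum and thalamus markers (horizontal axes, log2(FPKM + 1)). Each point is 1 of 30 mice, coloured by condition. VEH-T3 mouse 1 and Y397D-T3 mouse 3 lie among or beyond the home-cage mice against Cplx3 and Nxph4, while their thalamus means (2.44 and 2.25) lie below all 6 home-cage mice.

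The levels of some marker lists were related to those of the layer 6b genes and Fezf2, and of Tle4 for the CA2 and CA3 list. In the same relation across mice, taken over 91 pairs of a member with the mean of a marker list, Ctgf was related to the subiculum list of 4 genes (r = 0.774, rho = 0.589, adjusted permutation p = 0.00435 and 0.0217), to the layers 2 to 4 list (r = 0.713, rho = 0.619, adjusted permutation p = 0.00243 and 0.0189) and, for r only, to the layer 6b and subplate list (r = 0.609, rho = 0.436, adjusted permutation p = 0.00435 and 0.129). It ran against the CA2 and CA3 list (r = -0.64, rho = -0.56, adjusted permutation p = 0.0109 and 0.0351). Cplx3 followed the same lists, with r = 0.83 for subiculum, 0.688 for layers 2 to 4 and -0.695 for CA2 and CA3 (adjusted permutation p = 0.002, 0.002 and 0.0061). Tle4 also ran against the CA2 and CA3 list (r = -0.595, rho = -0.558, adjusted permutation p = 0.0109 and 0.0423). Its r was -0.477 without Y397F-T10 mouse 5 and VEH-T3 mouse 5 (adjusted permutation p = 0.217). Without VEH-T3 mouse 1 and Y397D-T3 mouse 3, r of Ctgf was 0.519 with subiculum, 0.552 with layers 2 to 4 and -0.35 with CA2 and CA3, none with an adjusted p under 0.05 (0.218, 0.137 and 0.377). Those relations passed the threshold only with these mice. Without the same mice r of Cplx3 with subiculum was 0.601 (adjusted permutation p = 0.0537). It was 0.532 with layers 2 to 4 and -0.423 with CA2 and CA3 (adjusted permutation p = 0.117 and 0.264). For Nxph4 and subiculum r was 0.761 and rho 0.44 (adjusted permutation p = 0.0109 and 0.129). That r was 0.32 without VEH-T3 mouse 1 and Y397F-T10 mouse 1 (adjusted permutation p = 0.471).

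Fezf2 had the closest relation to a list. Its r with the subiculum list was 0.856 and its rho 0.75 (permutation p = 1e-05 for both, the smallest that 100000 permutations can give, adjusted p = 0.00091), and r was 0.734 without Y397F-T10 mouse 1 and VEH-T3 mouse 1 (adjusted permutation p = 0.0091). Ctgf was not related beyond the threshold to the thalamus list (r = 0.189, adjusted permutation p = 0.458), the layer 6 corticothalamic list (0.249, 0.338), the layer 5 list (0.288, 0.148), the choroid plexus list (-0.22, 0.393), the CA1 list (-0.28, 0.308), the vascular and meningeal list (-0.25, 0.382) or the list of 6 YAP-TEAD targets (-0.36, 0.148). For dentate granule cells r was -0.46 (adjusted permutation p = 0.113), and for GABAergic interneurons 0.614 (0.0214, but 0.471 without the 2 mice).

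**Figure D4:**
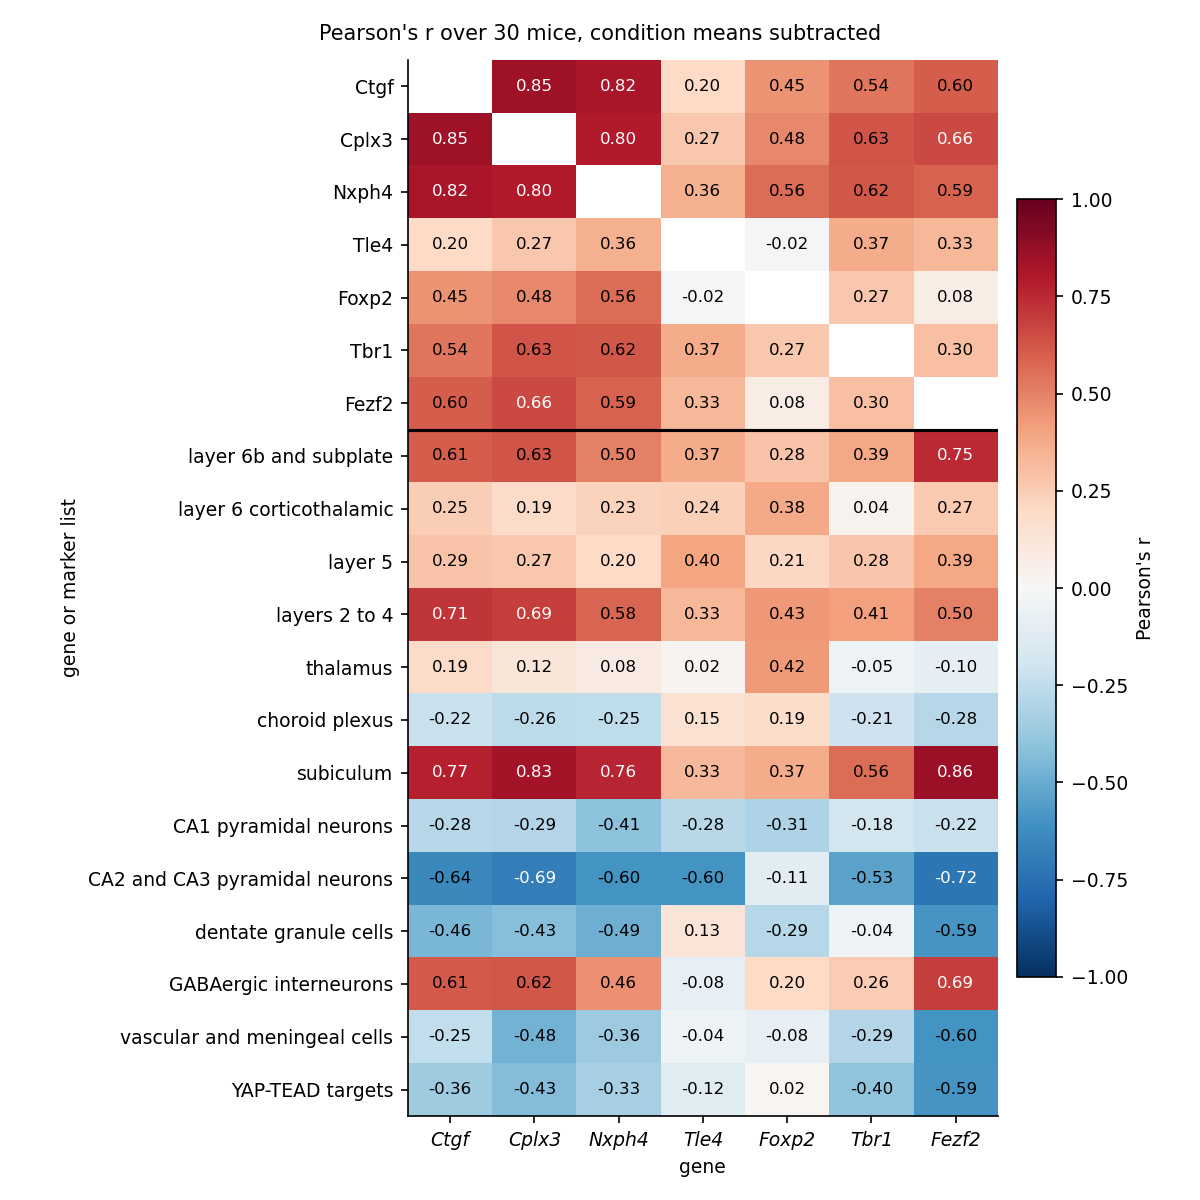
Pearson's r (colour and printed value) of each of the 7 genes (columns) with the other genes and with the mean of 13 marker lists (rows), over 30 mice with condition means subtracted. The 3 layer 6b genes have r from 0.80 to 0.85 with one another and from 0.76 to 0.83 with the subiculum list, and Tle4 and Foxp2 have r = -0.02. Without VEH-T3 mouse 1 and Y397F-T10 mouse 1, r of Nxph4 with the subiculum list is 0.32.

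The same lists were compared between home cage and training, where few of their genes were called. The lists were chosen with earlier results of these data known, so calls of listed genes here and below are descriptions. The summed FPKM of the 4 subiculum markers (Fn1, Nts, Dlk1, Cbln4) ran from 18.5 to 24.5 in VEH-HC, 13.6 to 22.3 in VEH-T10, 12.5 to 19.4 in Y397F-T10, 8.04 to 27.7 in VEH-T3 and 11.8 to 18.2 in Y397D-T3, and no marker was at 0. In VEH-T10 against VEH-HC 3 of 4 had a difference below 0 and 0 were called, with a median log2 difference of -0.55. Of all 13184 rows 59.7% were below 0 there, with a median of -0.03. Y397D-T3 had 1 of 4 called lower, Dlk1, an imprinted Notch-like gene, at 2.07 ± 0.921 FPKM in VEH-HC and 0.449 ± 0.302 in Y397D-T3 (SD, n = 6; log2 difference -1.05, adjusted p = 0.0324).

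The 12 thalamus markers summed to 52.5 to 92.9 FPKM in the home cage, 41.9 to 57.1 in VEH-T10, 38.0 to 59.6 in Y397F-T10, 39.4 to 95.8 in VEH-T3 and 37.8 to 51.2 in Y397D-T3, and Gbx2 and Shox2 were at 0 in some trained mice. All 8 tested markers had differences below 0 in each trained condition, where 59.6% to 63.7% of all rows did. Of the 8, 1 was called lower in VEH-T3 and in each 10 min condition and 3 in Y397D-T3. Slc17a6, the vesicular glutamate transporter of many subcortical neurons, was called in the 3 of these other than VEH-T3, and stood at 4.39 ± 0.629 FPKM in home-cage and 1.49 ± 0.353 in Y397F-T10 mice (adjusted p = 0.0313). Calb2, which encodes calretinin, was called in both 3 min conditions and Tcf7l2, a transcription factor of thalamic neurons, in Y397D-T3 (adjusted p = 0.0211). The 8 choroid plexus markers, which include Ttr, summed to 927 to 5655 FPKM in the home cage, 11.3 to 4511 in VEH-T10, 29.8 to 10499 in Y397F-T10, 30.9 to 12892 in VEH-T3 and 15.4 to 2865 in Y397D-T3, with 0 of 8 called in any of these comparisons. The 7 layer 6b and subplate markers that are not members summed to 99.8 to 109 FPKM in VEH-HC and 88.6 to 124 in VEH-T10, with none at 0. The sums were 90.9 to 124 in Y397F-T10, 89.7 to 120 in VEH-T3 and 89.9 to 111 in Y397D-T3. Pls3 made up most of each sum, with a mean of 73.8 FPKM over the 30 libraries. In each trained condition 5 of 7 had a difference below 0, and the median difference of the list lay between -0.29 and -0.08. Of these 7, 1 was called lower in VEH-T10, Tmem163, a zinc transporter (4.84 ± 1.05 to 3.08 ± 0.45 FPKM, log2 difference -0.51, adjusted p = 0.0374), and 1 in Y397D-T3, Hs6st2, a heparan sulphate sulphotransferase (7.57 ± 1.34 to 4.41 ± 0.73 FPKM, log2 difference -0.66, adjusted p = 0.0291). The part of these tissues in the members' levels was not tested.

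Other deep-layer lists gave few calls. Of 8 layer 6 corticothalamic markers, 7 had a difference below 0 in each trained condition, where 59.6% to 63.7% of all rows did. Of the 8, 0 were called lower, and 1, Hs3st4, a heparan sulphate sulphotransferase, was called higher in Y397D-T3 (35.9 ± 3.17 to 45.6 ± 4.73 FPKM, adjusted p = 0.0357). The median difference of this list lay between -0.39 and -0.30. Of 8 layer 5 markers and 8 tested layers 2 to 4 markers, 0 were called against VEH-HC, with medians from -0.29 to -0.11 and from -0.15 to -0.08. Of 4 tested YAP-TEAD targets, 0 were called, with medians from -0.21 to -0.05. Ankrd1, another of those targets, was at 0 in some mice of every condition. Of 8 CA1 markers 1 was called higher in VEH-T3, Spink8 (25.7 ± 5.45 to 36.2 ± 6.203 FPKM, adjusted p = 0.0465), and 1 in Y397D-T3, the transcription factor gene Pou3f1 (31.6 ± 1.73 to 40.1 ± 5.31 FPKM, adjusted p = 0.0198). Of 11 vascular and meningeal markers 1 was called higher in VEH-T3, the VEGF receptor gene Flt1 (adjusted p = 0.0492). The CA2 and CA3, dentate and GABAergic lists had 0 called by limma against VEH-HC. The share of all rows called higher is not given here, so calls of higher genes describe single genes only. At an unadjusted limma p under 0.05, 1027 of 13184 rows were higher in VEH-T3 and 1358 in Y397D-T3. Over the 4 comparisons with VEH-HC, the number of genes at an unadjusted p under 0.05 was 3 to 5 of 8 for the layer 6 corticothalamic list, 1 to 3 of 8 for layer 5, 0 to 3 of 8 for layers 2 to 4, 2 to 3 of 4 for subiculum, 0 to 7 of 8 for choroid plexus, 1 to 2 of 4 for YAP-TEAD targets, 1 to 3 of 8 for CA2 and CA3, 0 to 1 of 7 for dentate granule cells, 2 to 3 of 6 for GABAergic interneurons, 2 to 6 of 8 for thalamus, 2 to 3 of 7 for layer 6b and subplate, 1 to 3 of 8 for CA1 and 0 to 3 of 11 for vascular and meningeal markers. Over all rows tested the same share ran from 14.9% to 24.9%.

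The libraries that stood apart differed in many lists. In VEH-T3 mouse 1, Ctgf, Cplx3, Nxph4 and Tbr1 ranked 1 of 30, Foxp2 and Fezf2 ranked 2 and Tle4 ranked 3. The same library ranked 1 of 30 in the subiculum list, with a mean log2(FPKM + 1) of 2.86 against 1.28 to 1.99 in the other 5 VEH-T3 mice, and 1 of 30 in GABAergic interneuron markers (5.84 against 5.26 to 5.44). It ranked 30 of 30 in the CA2 and CA3 list (3.83 against 4.15 to 4.68) and 29 in dentate granule cells (2.63 against 2.94 to 3.82). In Y397D-T3 mouse 3, Tbr1 ranked 2, Ctgf and Cplx3 ranked 3 and Tle4 ranked 22, while the layers 2 to 4 list ranked 2 (2.57 against 2.23 to 2.39 in the other 5). In Y397F-T10 mouse 1, Fezf2 ranked 1, Nxph4 ranked 2 and Tbr1 ranked 27, and the dentate list ranked 30 (2.48 against 3.48 to 3.71). Their part in the levels was not tested.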

How the data were processed

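RNA from a dorsal hippocampal hemisphere of 30 mice was sequenced as paired-end reads (6 mice per condition, 1 library each). The deposited FPKM were made by the authors with TopHat2 2.1.1 on mm10 and Cufflinks 2.2.1; these versions are from the submitters' processing notes. FPKM is normalised to length and library, fragment counts are not used here, and how multi-mapped or antisense fragments were counted is not given in the sources used here, nor is the platform of each library. Absolute depth is unknown; 2642 rows with a mean of 0.005 to 0.1 FPKM gave relative depth, and 434 of 435 pairs of libraries fitted within 0.01 on the log2 scale. All 30 columns were used.

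Members and lists were chosen with earlier results of these data known. log2(FPKM + 1) of the 13184 rows with a mean of at least 1 FPKM was fitted with limma 3.58.1 (R 4.3.3; trend, 5 conditions, 30 libraries), and p-values were adjusted by Benjamini-Hochberg over those rows. The study used Cyber-T in its ANOVA mode, which was not run here. Members and listed genes below the filter come from a fit of 18287 rows above 0 in at least 6 libraries. Relations used 100000 permutations within conditions (Python 3.11.15, numpy 2.4.6, scipy 1.17.1). The fit and the permutation test were tested on simulated data. Named genes were the 7 members, up to 4 called genes of each list, the 5 rows most like Ctgf before and after subtracting condition means, and Ss18l1. List means used rows of at least 1 FPKM. Alternatives were a pseudocount of 0.1, no filter, subtraction of library medians, the 12 compared libraries alone, a replicate block, rows of a symbol summed, unadjusted p-values and leaving out each library. Replicate numbers name different mice.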

Additional observations from a re-analysis of the deposited data

Results flagged for a closer look

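Of 35 groups of 6 mice (7 genes in 5 conditions), 7 held a mouse whose FPKM lay far from the other 5, by a gap to the nearest mouse of more than 0.625 of the group's range. Chance alone gives about 1 such group in 20 where values are normally distributed and groups are independent. The groups here share libraries and hold genes that went together across mice, and FPKM was not log-transformed. The count of 7 in 35 is therefore not set against that rate. All 7 were high values, in 3 libraries. VEH-T3 mouse 1 had Ctgf at 7.41 FPKM (next highest 2.80), Cplx3 at 3.62 (0.927), Nxph4 at 2.56 (0.614) and Fezf2 at 20.1 (12.9). Y397D-T3 mouse 3 had Ctgf at 5.40 FPKM (2.44) and Cplx3 at 2.56 (1.01). Y397F-T10 mouse 1 had Fezf2 at 23.8 FPKM (11.8). No mouse of VEH-HC or VEH-T10 was far from the others in any of the 7 genes.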

How the results depend on the processing

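Counts of called members below leave out Ctgf where the home-cage or VEH-T10 mice enter, and none is given for VEH-T10 against VEH-HC, which chose the set. In Y397F-T10 against VEH-HC the count was 0 of 4, and 1 with only the 12 libraries compared, 1 at unadjusted p and 0 to 1 with single libraries left out. In VEH-T3 against VEH-HC it was 0 of 4, and 1 with a pseudocount of 0.1, 1 with a replicate block, 1 at unadjusted p and 0 to 1 with libraries left out (1 without VEH-HC mouse 6 or VEH-T3 mouse 1). In Y397D-T3 against VEH-HC it was 0 of 4, and 1 with only the 12 libraries, 1 with a replicate block, 1 at unadjusted p and 0 to 1 with libraries left out (1 without Y397D-T3 mouse 3). In VEH-T10 against VEH-T3 it was 0 of 4, and 1 at unadjusted p. The member was Cplx3 each time, except Tbr1 at unadjusted p in the last and Fezf2 without Y397F-T10 mouse 1; the cause was not tested. Replicate numbers belong to different mice: same-numbered libraries deviated together with r above 0.1 in 1 to 3 of 6 pairs per comparison, so the replicate block is given only here.

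Of 588 log2 differences with a library left out, 35 changed sign, and of 210 under other alternatives 4 did. With library medians subtracted the difference of Tle4 was 0.0209 in Y397F-T10 and 0.0188 in Y397D-T3 against VEH-HC and 0.00195 in VEH-T10 against VEH-T3, where Cplx3 was 0.053 with a pseudocount of 0.1. With single libraries left out, the differences that changed sign ran, against VEH-HC, from -0.0409 to 0.0363 (Y397F-T10), -0.0106 to 0.0463 (VEH-T3) and -0.0397 to 0.0138 (Y397D-T3) for Tle4 and from -0.136 to 0.00267 (VEH-T3) for Tbr1 and -0.0668 to 0.00606 (VEH-T3) for Foxp2. Between Y397F-T10 and VEH-T10 they ran from -0.0117 to 0.105 for Cplx3 and -0.0443 to 0.0328 for Tle4. Between Y397D-T3 and VEH-T3 they ran from -0.375 to 0.0508 for Ctgf, -0.101 to 0.317 for Cplx3, -0.0924 to 0.229 for Nxph4, -0.0642 to 0.00149 for Tle4 and -0.0999 to 0.0672 for Tbr1. Between VEH-T10 and VEH-T3 they ran from -0.129 to 0.22 for Cplx3, -0.238 to 0.0427 for Nxph4 and -0.0428 to 0.0143 for Tle4. Without condition means subtracted, r of Tle4 and Foxp2 was 0.0173, and r with the choroid plexus list was 0.119 for Ctgf and 0.0429 for Cplx3. There 44 of 91 relations with lists had an adjusted p under 0.05, against 21. Without the 2 farthest libraries 1 of 91 and 4 of 21 pairs of members did, and r turned to -0.16 for Ctgf and Tbr1, -0.0231 for Cplx3 and Tbr1, -0.0361 for Nxph4 and Fezf2, 0.0324 for Tle4 and Foxp2, -0.0852 for Tbr1 and Fezf2, 0.0773 and 0.0532 for Ctgf and Cplx3 with choroid plexus, and 0.193 for Ctgf with the vascular list.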
